A study of Mus musculus with 2 samples.

Results

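The genes of DNA replication and of mitosis were followed through the cell classes of the fetal mouse lung at gestation day 18, in litters of mothers given dexamethasone (DEX, a synthetic glucocorticoid) or vehicle. The members are 53 genes chosen by symbol, 24 of the S phase program and 29 of the G2/M program, among 32285 genes measured, and all 53 had a row in the matrix. A further list of 42 cell cycle regulators served for comparison. The mice were wild type, and mothers aged 9 weeks drank water with DEX dissolved in PBS at 1.3 µg/ml, or with PBS, from day 12 of gestation. The lungs of each litter were pooled, DEX-1 from 8 fetuses, DEX-2 from 9, PBS-1 from 5 and PBS-2 from 8, and cells of each litter were tagged with a different hashtag antibody that is sequenced beside the RNA. Viable CD45+ cells without lineage markers and with ST2, the IL-33 receptor, were sorted, which is the gate for group 2 innate lymphoid cells (ILC2s, tissue lymphocytes that release type 2 cytokines), and went into 1 pooled 10x 5′ single-cell library.

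A dividing cell copies its DNA in S phase and separates the copies in mitosis (M), with a gap phase (G1 or G2) before each. The transcription factor E2F, held back by the retinoblastoma protein until cyclin-dependent kinases inactivate it, switches on the S phase genes. The genes of G2 and mitosis come on later through the MuvB complex with B-Myb and FOXM1, which acts at promoters with a CHR element, often beside CCAAT boxes bound by NF-Y. Before birth ILC2s and other lung cells expand in the tissue, so the transcripts of both programs show which classes were dividing when the lungs were taken.

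Cells with a single hashtag numbered 1737 and 1888 in the litters DEX-1 and DEX-2 and 1753 and 1890 in PBS-1 and PBS-2, with 18665955 to 23660294 unique molecular identifiers (UMIs, 1 per captured RNA molecule) a litter. Of 10409 barcodes that passed the filters, 736 carried more than 1 hashtag and 2405 carried none, and neither group was used in the comparisons. No barcode occurred in the matrix more than once. Classes were built from clusters without the members, and are named by fixed marker genes in the sense of "ILC2-like", with the ending left off below. They held 2341 mast cells, 2052 ILC2s, 494 basophils, 446 epithelial cells, 395 cells with mast and basophil markers that could not be assigned to either (undivided mast or basophil cells), 288 endothelial cells, 261 macrophages or monocytes, 199 B cells and 197 mesenchymal cells. Most of the sorted cells were thus in classes other than ILC2s. On average an ILC2 marker was seen in 76.3% and 79.9% of the cells of the ILC2 clusters, against 21.6% and 27.2% for T cell markers. Macrophages or monocytes rested on weaker support, with a mean marker share of 35.3% and the neutrophil marker S100a8 as their leading gene. The cluster led by Prtn3 and Mpo (206 cells), the cluster led by Higd1b and Postn (361 cells) and a cluster of 28 cells stayed unnamed. Sftpc, the epithelial surfactant protein C gene, had a UMI in 37.9% of ILC2s and 61.6% of B cells against 85.6% of epithelial cells at equal depth, and the source of its UMIs outside epithelial cells was not tested.

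The promoters of members from each program are printed to show E2F letters in S members and CHR and CCAAT letters in G2/M members. They come from RefSeq on GRCm38.p6 and span 250 bases before to 50 after the start of the gene, 5′ to 3′ on the gene's strand, with capitals at the motifs named for each. In Mcm6, which encodes a subunit of the replicative helicase (chr1:128359656-128359955, minus strand), capitals mark 3 E2F matches, of which a pair overlap, and 2 CCAAT boxes. In Cdc6, an origin licensing factor (chr11:98907901-98908200, plus strand), they mark 1 E2F match.
Mcm6: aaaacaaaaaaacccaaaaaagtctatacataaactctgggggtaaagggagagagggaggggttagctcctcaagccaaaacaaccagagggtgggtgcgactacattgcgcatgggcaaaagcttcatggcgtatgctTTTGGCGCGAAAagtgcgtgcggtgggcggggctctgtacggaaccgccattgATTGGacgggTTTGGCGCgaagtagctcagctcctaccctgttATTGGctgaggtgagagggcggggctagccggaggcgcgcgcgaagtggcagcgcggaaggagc
Cdc6: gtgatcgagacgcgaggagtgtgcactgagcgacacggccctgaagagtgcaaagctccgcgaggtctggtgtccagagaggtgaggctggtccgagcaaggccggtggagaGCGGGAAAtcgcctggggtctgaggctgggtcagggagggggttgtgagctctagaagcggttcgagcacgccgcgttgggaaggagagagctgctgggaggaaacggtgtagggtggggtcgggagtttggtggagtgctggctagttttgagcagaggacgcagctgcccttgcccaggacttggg
In Ccnb2, cyclin B2 (chr9:70421505-70421804, minus strand), capitals mark 2 CHR matches and 3 CCAAT boxes. In Cdc20, the activator of the anaphase promoting complex (chr4:118437294-118437593, minus strand), they mark 1 CHR match and 2 CCAAT boxes.
Ccnb2: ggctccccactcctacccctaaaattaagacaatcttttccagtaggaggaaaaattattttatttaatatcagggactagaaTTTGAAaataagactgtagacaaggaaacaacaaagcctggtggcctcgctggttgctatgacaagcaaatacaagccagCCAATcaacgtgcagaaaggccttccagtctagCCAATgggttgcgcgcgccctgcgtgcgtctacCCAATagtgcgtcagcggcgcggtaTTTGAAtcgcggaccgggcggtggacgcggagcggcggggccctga
Cdc20: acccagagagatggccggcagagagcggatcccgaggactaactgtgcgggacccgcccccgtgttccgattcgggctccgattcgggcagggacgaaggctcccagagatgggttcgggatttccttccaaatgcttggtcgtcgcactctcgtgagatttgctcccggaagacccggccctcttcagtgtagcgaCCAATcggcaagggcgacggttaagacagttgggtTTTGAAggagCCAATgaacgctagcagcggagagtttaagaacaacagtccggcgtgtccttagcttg

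Windows were found for 45 of the 53 members and for 27025 genes in all. The letters searched on both strands were TTTGGCGC, TTTCCCGC, TTTCGCGC and TTTGCCGC for E2F, TTTGAA for the CHR element, and CCAAT for the CCAAT box. An E2F match lay in 40% of the 20 S windows and 4% of the 25 G2/M windows, against 2.32% of all windows. A CHR match lay in 15% of the S windows and 76% of the G2/M windows, against 18.1% of all. The CCAAT letters were common everywhere, with 60%, 80% and 37.9%. The pair of CHR and CCAAT in 1 window occurred in 68% of the G2/M windows, 10% of the S windows and 7.12% of all windows. These are matches of letters in a window of 300 bases and do not show that a factor was bound.

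**Figure D1:**
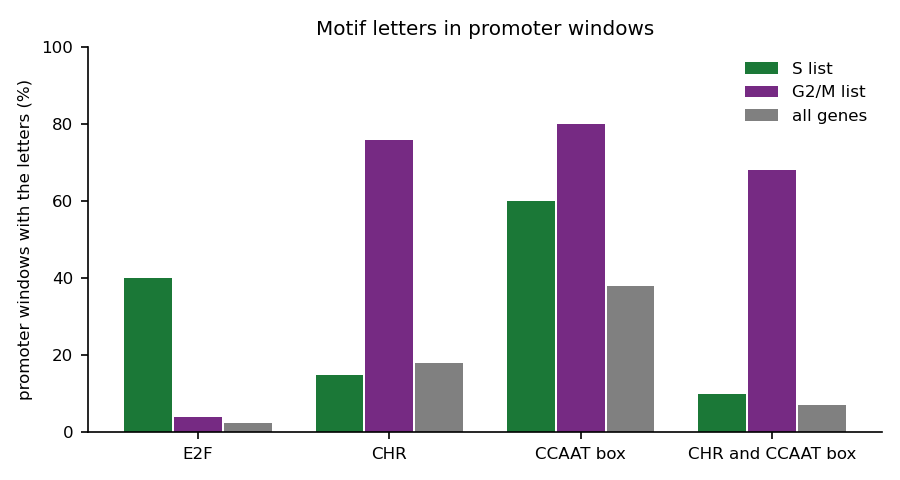
Share of promoter windows (percent, vertical axis) with a match to the E2F, CHR and CCAAT letters and to CHR with CCAAT, for the S members (20 windows), the G2/M members (25) and all genes (27025). E2F letters lie in 40% of S windows and CHR letters in 76% of G2/M windows, against 2.32% and 18.1% of all windows.

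Shares of dividing cells were compared after every cell was thinned to 2000 UMIs, and a cell was said to have a program when it held at least 3 UMIs of that list. In ILC2s, 30.3% of 2033 cells had the S program (95% Wilson interval 28.4 to 32.4) and 21.4% the G2/M program (19.7 to 23.2). The S share of ILC2s was 30.5% and 29.98% in the DEX litters and 24.1% and 35.9% in the PBS litters, and the G2/M share was 21.1%, 21.7%, 19.0% and 23.4%. Pairs of values are given with litter 1 first, here and below. The PBS litters enclosed the DEX litters in both. Intervals cover counting error only, here and below.

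Mast cells, the most numerous class, had the lowest shares among the classes with mast or basophil markers, with 7.35% of 2096 cells in the S program (6.31 to 8.54) and 3.34% in the G2/M program (2.65 to 4.198). Their S share was 4.66% and 10.2% in the DEX litters and 5.95% and 8.06% in the PBS litters. DEX-1 was the lowest and DEX-2 the highest of the 4 litters, so the treatment groups overlapped. Thinning left out 245 mast cells that had fewer UMIs. Without Kif23, which mast cells carried outside both programs, their G2/M share was 2.43% (1.86 to 3.19), and it was 1.22% and 4.29% in the DEX litters and 2.55% and 1.58% in the PBS litters. Basophils were between, with 13.2% (10.5 to 16.5) and 13.4% (10.6 to 16.7) of 486 cells. Their G2/M share was 6.06% in DEX-1, the lowest, and 16%, 15.8% and 12.1% in DEX-2, PBS-1 and PBS-2.

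The undivided mast or basophil cells, led by Gzmb, Scin and Car1, stood well above both of these classes. Of 393 cells, 39.9% had the S program (35.2 to 44.9) and 29.5% the G2/M program (25.2 to 34.2). The highest shares were in the unnamed cluster led by Prtn3, Mpo, Car1, Gfi1b and Klf1, genes of early myeloid and erythroid cells, with 75.7% (69.4 to 81.1) and 56.8% (49.97 to 63.4) of 206 cells. By litter its S share ran from 65.2% in PBS-1 to 87.9% in PBS-2.

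Structural and other immune cells differed widely. Their shares hold for cells with a hashtag, and mesenchymal and epithelial cells without one had lower shares (given below). Endothelial cells had the S program in 20.5% (16.2 to 25.6) and the G2/M program in 23.0% (18.5 to 28.3) of 278 cells, and macrophages or monocytes in 19.4% (14.9 to 24.7) and 25.8% (20.8 to 31.6) of 248. Mesenchymal cells reached 13.5% (9.36 to 19.0) and 11.9% (8.07 to 17.3) of 193 cells. Epithelial cells were low in both, with 4.97% (3.30 to 7.40) and 4.06% (2.59 to 6.33) of 443 cells. B cells had the S program in 10.3% (6.67 to 15.5) but the G2/M program in only 1.08% (0.297 to 3.86) of 185 cells. The unnamed cluster led by Higd1b, with epithelial and endothelial markers together and a median of 33590 UMIs, had 10.2% (7.53 to 13.8) and 20.5% (16.7 to 25.0) of 361 cells, and whether it holds doublets was not tested.

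**Figure D2:**
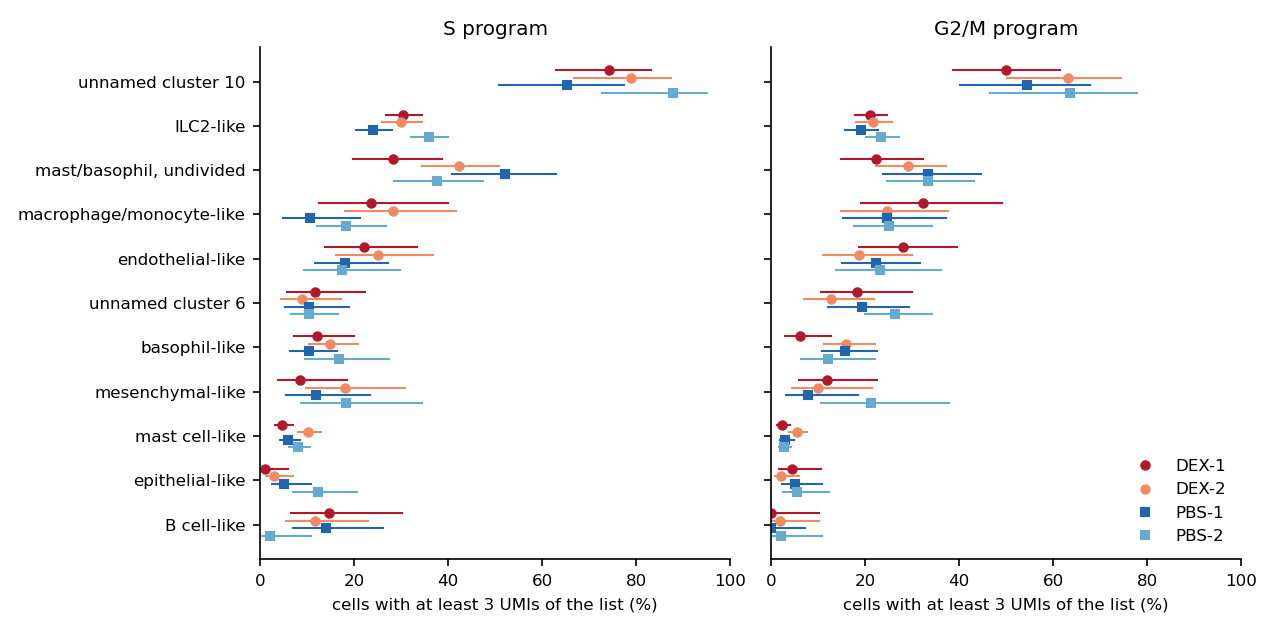
Percent of cells with the S program and with the G2/M program (horizontal axes) by class (rows), each point 1 litter with its 95% Wilson interval as a line, DEX litters as red circles and PBS litters as blue squares, cells thinned to 2000 UMIs. Mast and epithelial cells sit lowest in both programs apart from the B cells in G2/M, ILC2s and undivided mast or basophil cells sit high, and the unnamed cluster 10 lies above all with 75.7% and 56.8% overall.

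The ILC2 class itself was made of a cluster with low and a cluster with high shares. Members and regulators were left out of the clustering, but other genes that move with the cycle were not. The larger, led by Hilpda, Tnfrsf18 and Calca, had the S program in 19.3% and the G2/M program in 10.97% of 1221 cells. The smaller had 46.9% and 37.1% of 812 cells. Its leading genes were Tcrg-C4, S100a4, Cxcl10, Thy1, Tcf7, Trbc1, Lck, Ctsw, Cd27 and Cxcr6, of which Thy1 and Cxcr6 are on the fixed ILC2 list, Lck is on the fixed T cell list and others are also genes of T cells. At equal depth a UMI of the T cell receptor gene Trac was in 3.33% of its cells, of Cd3d in 1.36%, of Cd3e in 6.03% and of Cd5 in none, against 1.56%, 0.573%, 7.21% and none in the larger cluster. The other T cell markers were more common, with Cd3g in 46.1% of its cells against 59.6% and Lck in 10.7% against 4.67%. Its leading gene Trbc1 was in 13.2% against 5.90%. The ILC2 markers Il7r, Gata3 and Icos had a UMI in 66.4%, 49.0% and 64.7% of its cells, against 74.0%, 57.9% and 66.3%. Il2ra, Rora and Areg were in 29.4%, 62.3% and 37.8%, against 53.6%, 77.15% and 44.4%. Thy1 and Cxcr6 were in 31.65% and 34.2%, against 21.5% and 26.4%. The smaller cluster was kept in the class, and some of the results are also given without it. The G2/M share of the larger cluster was 10.3% to 12.3% over the 4 litters and that of the smaller 34.3% to 42.9%, with no overlap. Mast cell clusters did not split in this way, with an S share of 6.98%, 7.98% and 7.53%.

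Cells in a program held more RNA, apart from mast cells with G2/M alone. The median ILC2 with neither program had 5929 UMIs, against 9966.5 with S alone, 13982 with both and 13791 with G2/M alone. In mast cells the medians were 6806, 9921, 13794 and 6856. Without thinning, 59.7% of ILC2s and 34.2% of mast cells passed the cut for S, and 34.6% and 18.0% that for G2/M, so the levels of the shares depend on depth and cut while ILC2s stayed above mast cells at each setting tried.

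Levels of single members were compared between ILC2s and the 3 most numerous of the other named classes (mast cells, basophils and epithelial cells), as UMIs summed by litter and scaled to a common total (CPM, counts per 1000000 UMIs), with edgeR and the litter as a term. A threshold of 0.05 on the adjusted p was used. Against mast cells, 23 of 24 S members and 28 of 29 G2/M members were higher in ILC2s, where 34.8% of all 11555 genes tested were higher and 35.4% lower. The median log2 difference was 1.74 for S and 3.24 for G2/M. Without the smaller ILC2 cluster 18 of 24 S and 28 of 29 G2/M members were higher, with medians of 1.10 and 2.47. In that fit 31.1% of all 11101 genes tested were higher and 32.9% lower.

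Among helicase genes, Mcm5 stood at 98.5, 85.1, 92.9 and 115 CPM in ILC2s, with the DEX litters before the PBS litters in such series, and at 12.4, 28.1, 19.1 and 19.7 in mast cells. The log2 difference was 2.17 ± 0.16 (SE, edgeR adjusted p = 2.94e-08). Mcm6 stood at 177, 157, 156 and 183 CPM in ILC2s and 35.1, 77.6, 52.2 and 58.1 in mast cells, a difference of 1.49 ± 0.14. In both genes every ILC2 value lay above every mast cell value. Uhrf1, which carries DNA methylation to the new strand, differed by 2.70 ± 0.19, Rrm2, which makes deoxynucleotides, by 2.11 ± 0.19, and Pcna, the sliding clamp, by 0.93 ± 0.10. Cdc6, Slbp and E2f1 were closest, with 0.77 ± 0.18, 0.66 ± 0.09 and 0.22 ± 0.15. Without the smaller ILC2 cluster Pcna (0.33, edgeR adjusted p = 0.077), Slbp (0.21) and Cdc6 (-0.08) did not pass. E2f1 was the S member that did not pass in the whole class (edgeR adjusted p = 0.201), with 28.9, 25.8, 33.4 and 41.6 CPM in ILC2s and 21.9, 31.0, 26.4 and 22.1 in mast cells.

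The mitotic genes were further apart. Ccnb1, cyclin B1, stood at 52.7, 48.2, 61.8 and 61.2 CPM in ILC2s and at 1.26, 1.98, 4.49 and 3.89 in mast cells (log2 difference 4.15 ± 0.18, edgeR adjusted p = 1.44e-10). Cdc20 differed by 4.29 ± 0.18, Ube2c, the ubiquitin-conjugating enzyme of the anaphase promoting complex, by 4.15 ± 0.16, and Birc5, survivin of the chromosomal passenger complex, by 3.65 ± 0.15. Mki67, the antigen of the Ki-67 proliferation stain, stood at 108, 113, 117 and 126 CPM in ILC2s and at 11.1, 12.3, 11.8 and 9.48 in mast cells, a difference of 3.24 ± 0.10.

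Kif23, a kinesin of the cytokinesis midzone, went the other way, with 133, 99.7, 128 and 147 CPM in mast cells against 65.5, 75.6, 61.8 and 66.8 in ILC2s (log2 difference -1.04 ± 0.11, edgeR adjusted p = 1.43e-06). It was the single member that was lower in ILC2s. In mast cells it stood at 132 CPM in cells with neither program and at 109 CPM in cells with G2/M alone. In ILC2s the same values were 45.9 and 113 CPM. Kif23 lies on chr9:61915905-61946774, minus strand, in GRCm38 and overlaps no other annotated gene (GENCODE M21).

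Against basophils, 16 of 24 S members and 13 of 29 G2/M members were higher in ILC2s and none lower, where 25.6% of all 10656 genes tested were higher and 25.7% lower. Hells, a chromatin remodeller, had the largest difference (1.55 ± 0.17), followed by Bub1, a spindle checkpoint kinase (1.31 ± 0.30), while Mki67 differed by 0.62 ± 0.19. Mcm6 (0.12 ± 0.11), Tyms (0.02 ± 0.11) and Ccnb1 (0.36 ± 0.29) did not pass. The G2/M sum of basophils was 649 CPM in DEX-1 and 1474 to 1967 in the other litters, and without DEX-1 the count of higher members was 18 in place of 29. The share of all genes higher without DEX-1 is not given here. DESeq2 called 12 S and 10 G2/M members higher, where 1933 of all 18852 genes tested were higher. For most members the difference from basophils was lost without the smaller ILC2 cluster. There 7 of 21 S members tested were higher and 5 lower, and 2 of 29 G2/M members were higher and 2 lower, beside 23.7% and 23.9% of all genes, with medians of -0.07 and -0.14. Hells was then still higher (0.85), Bub1 (0.64) and Mki67 (0.12) did not pass, and Mcm6 (-0.45) and Tyms (-0.86) were lower.

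Against epithelial cells, 24 of 24 S and 29 of 29 G2/M members were higher in ILC2s, where 35.5% of all 12569 genes tested were higher and 40.2% lower, with medians of 2.54 and 2.92. Mcm5 differed by 3.92 ± 0.16 and Ccne2, cyclin E2, by 1.12 ± 0.41. Mki67 was 13.8, 7.47, 9.55 and 15.7 CPM in epithelial cells.

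Across the 9 named classes, 16 of 29 G2/M members were highest in ILC2s by their mean over litters, 7 in undivided mast or basophil cells, 4 in endothelial cells, 1 in macrophages or monocytes and 1, Kif23, in mast cells. Of 24 S members, 13 were highest in undivided mast or basophil cells, 7 in ILC2s, 3 in macrophages or monocytes and 1 in B cells. B cells were lowest for 24 G2/M members and epithelial cells for 19 S members. Summed over the list, the G2/M members reached 2547 ± 107 CPM (SD, n = 4 litters) in ILC2s, 2173 ± 479 in undivided mast or basophil cells, 1967 ± 438 in endothelial cells and 347 ± 51.7 in mast cells. The S members reached 1619 ± 148, 1737 ± 289, 904 ± 111 and 530 ± 123 CPM. For ILC2s and undivided mast or basophil cells the litters overlapped in both sums. The unnamed cluster led by Prtn3 and Mpo had the largest S sum, 2531 ± 315 CPM.

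**Figure D3:**
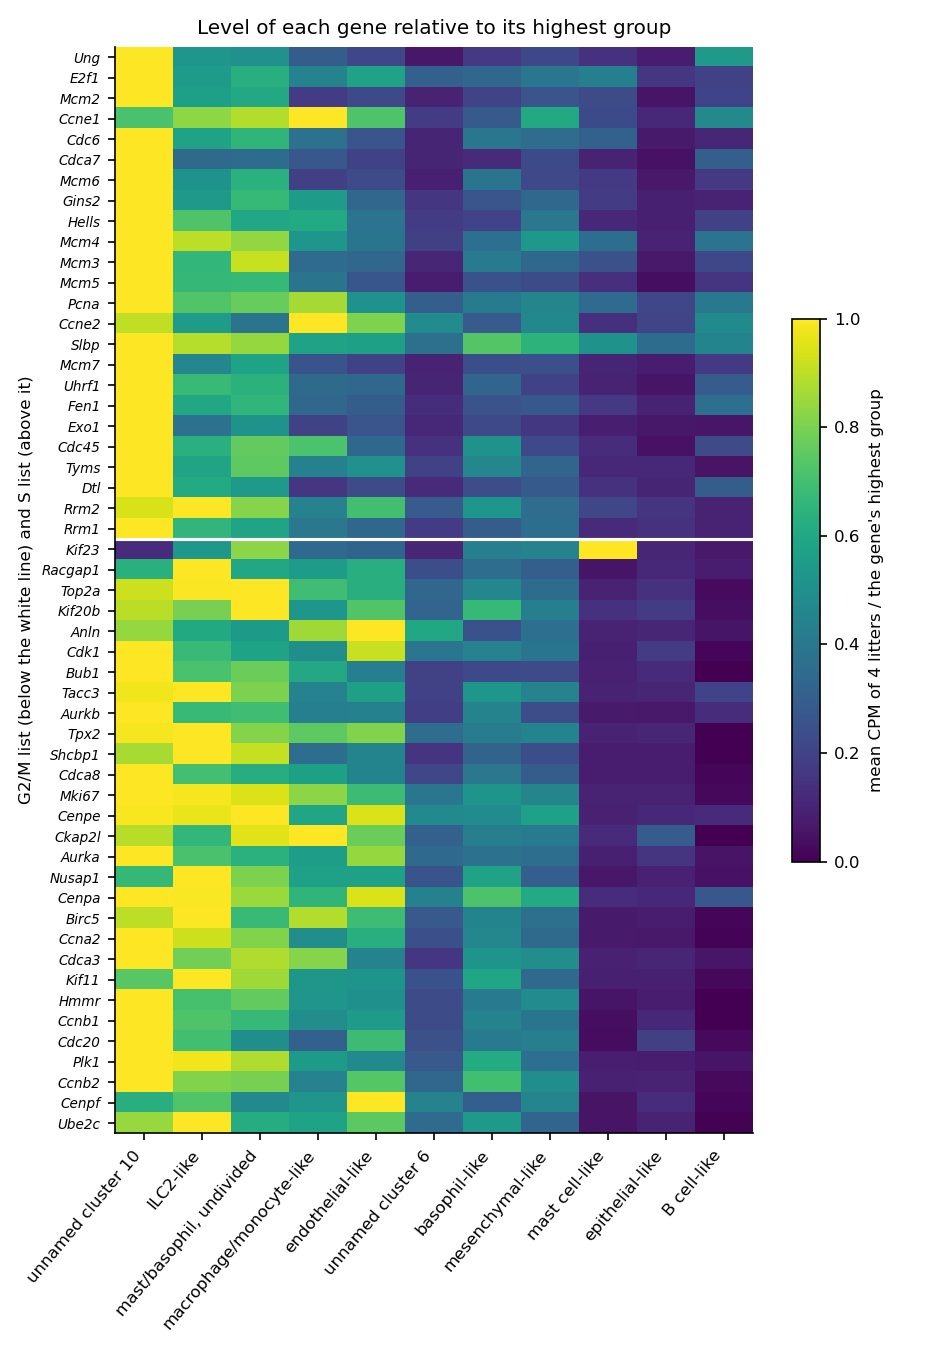
Mean CPM over the litters of each member (rows, S members above the white line and G2/M members below it, in the order found in ILC2s) by class (columns), coloured by its ratio to the member's highest class on a linear scale from 0 to 1. The block of G2/M members is dark in B, mast and epithelial cells apart from Kif23 in mast cells, and bright in ILC2s, undivided mast or basophil cells, endothelial cells and macrophages or monocytes.

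Of the regulators outside the members, 29 of 40 tested were higher and 4 lower in ILC2s than in mast cells, beside the 34.8% and 35.4% of all genes. Among the higher were Cdc25b, a phosphatase that activates CDK1 (4.73 ± 0.24), the CDK4/6 inhibitor Cdkn2c (2.89 ± 0.26) and E2f2 (2.83 ± 0.41). In mast cells each of these had only 1 to 8 UMIs a litter, so the sizes are uncertain. Lower were Cdkn1a, which encodes the CDK inhibitor p21 (-0.93 ± 0.07), and the D cyclins Ccnd1 (-3.53 ± 0.19), Ccnd2 (-0.58 ± 0.08) and Ccnd3 (-0.35 ± 0.07). With the smaller ILC2 cluster left out, 23 of 40 were higher and 5 lower, beside 31.1% and 32.9% of all genes. Against basophils 13 of 39 were higher and 8 lower, near the 25.6% and 25.7% of all genes, with E2f2 (-2.31 ± 0.24) and E2f8 (-2.25 ± 0.18) among the lower. With the smaller ILC2 cluster left out, 4 of 39 were higher and 10 lower, beside 23.7% and 23.9% of all genes. Against epithelial cells 29 of 41 were higher and 5 lower, beside 35.5% and 40.2% of all genes, led in the lower direction by the CDK inhibitors Cdkn2b (-7.08) and Cdkn1c (-3.83 ± 0.11). Cdkn2b had only 2 to 6 UMIs a litter in ILC2s, so the size of its difference is uncertain. Cdkn1c averaged 430 CPM in epithelial cells, 398 in mesenchymal cells and 180 in endothelial cells, against 35.8 in ILC2s.

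The order of the members was read from ILC2s with S alone, with both programs and with G2/M alone, each gene left out of the sums that sorted the cells. Since the lists themselves sort the cells, the side on which a list falls is fixed by construction, and the order inside each list is a description. It ranks a ratio of levels and does not by itself show when a gene comes on. Of ILC2s with either program, 43.3% had S alone, 37.2% both and 19.6% G2/M alone. Ung, a uracil-DNA glycosylase, had 258 UMIs in ILC2s with S alone and 0 in those with G2/M alone, where it was at least 54.0-fold lower (against a floor of 3 UMIs over the group). Ccne1, cyclin E1, had 51 and 3 UMIs. For the others the log2 ratio of G2/M alone over S alone is given as a mean over 4 litters with its SD. E2f1 stood at -3.80 ± 0.98, the helicase gene Mcm2 at -3.05 ± 0.42 and Cdc6 at -2.94 ± 0.81.

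Other S members lay closer to 0. Pcna stood at -1.57 ± 0.42, the histone mRNA binder Slbp at -1.31 ± 0.30, Uhrf1 at -0.96 ± 0.39 and the thymidylate synthase gene Tyms at -0.45 ± 0.16. The ribonucleotide reductase genes Rrm2 (0.12 ± 0.43) and Rrm1 (0.28 ± 0.30) were last in the S list. Rrm2 stood at 4.24 CPM in ILC2s with neither program, 87.9 with S alone, 359 with both and 98.2 with G2/M alone. Of the S list, 11 members peaked in cells with S alone and 13 in cells with both.

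In the G2/M list Kif23 was first (1.38 ± 0.18), then Racgap1 (2.77 ± 0.24), its partner in cytokinesis. Top2a, the topoisomerase that untangles DNA (2.81 ± 0.28), Cdk1, the mitotic kinase (3.25 ± 0.68), and Mki67 (3.79 ± 0.60) came before the centromere histone Cenpa (4.59 ± 0.13), Birc5 (4.65 ± 0.40) and cyclin A2, Ccna2 (4.66 ± 1.00). Last were the spindle gene Hmmr at 5.50 ± 0.26, Ccnb1 at 5.66 ± 0.49, Cdc20 at 5.75 ± 0.67, the mitotic kinase gene Plk1 at 6.24 ± 1.42, Ccnb2 at 6.39 ± 2.05, the kinetochore gene Cenpf at 6.57 ± 0.87 and Ube2c at 7.66 ± 0.68. Neighbours in this order differ by less than their SD over litters in most cases. Ube2c stood at 8.55 CPM with S alone, 737 with both and 1752 with G2/M alone. Of the G2/M list, 23 members peaked in cells with G2/M alone and 6 in cells with both. In mast cells, where 97 to 128 cells had S alone and 22 to 27 both, depending on the gene left out, 11 peaked with G2/M alone and 18 with both, and 4 S members peaked with S alone and 20 with both.

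**Figure D4:**
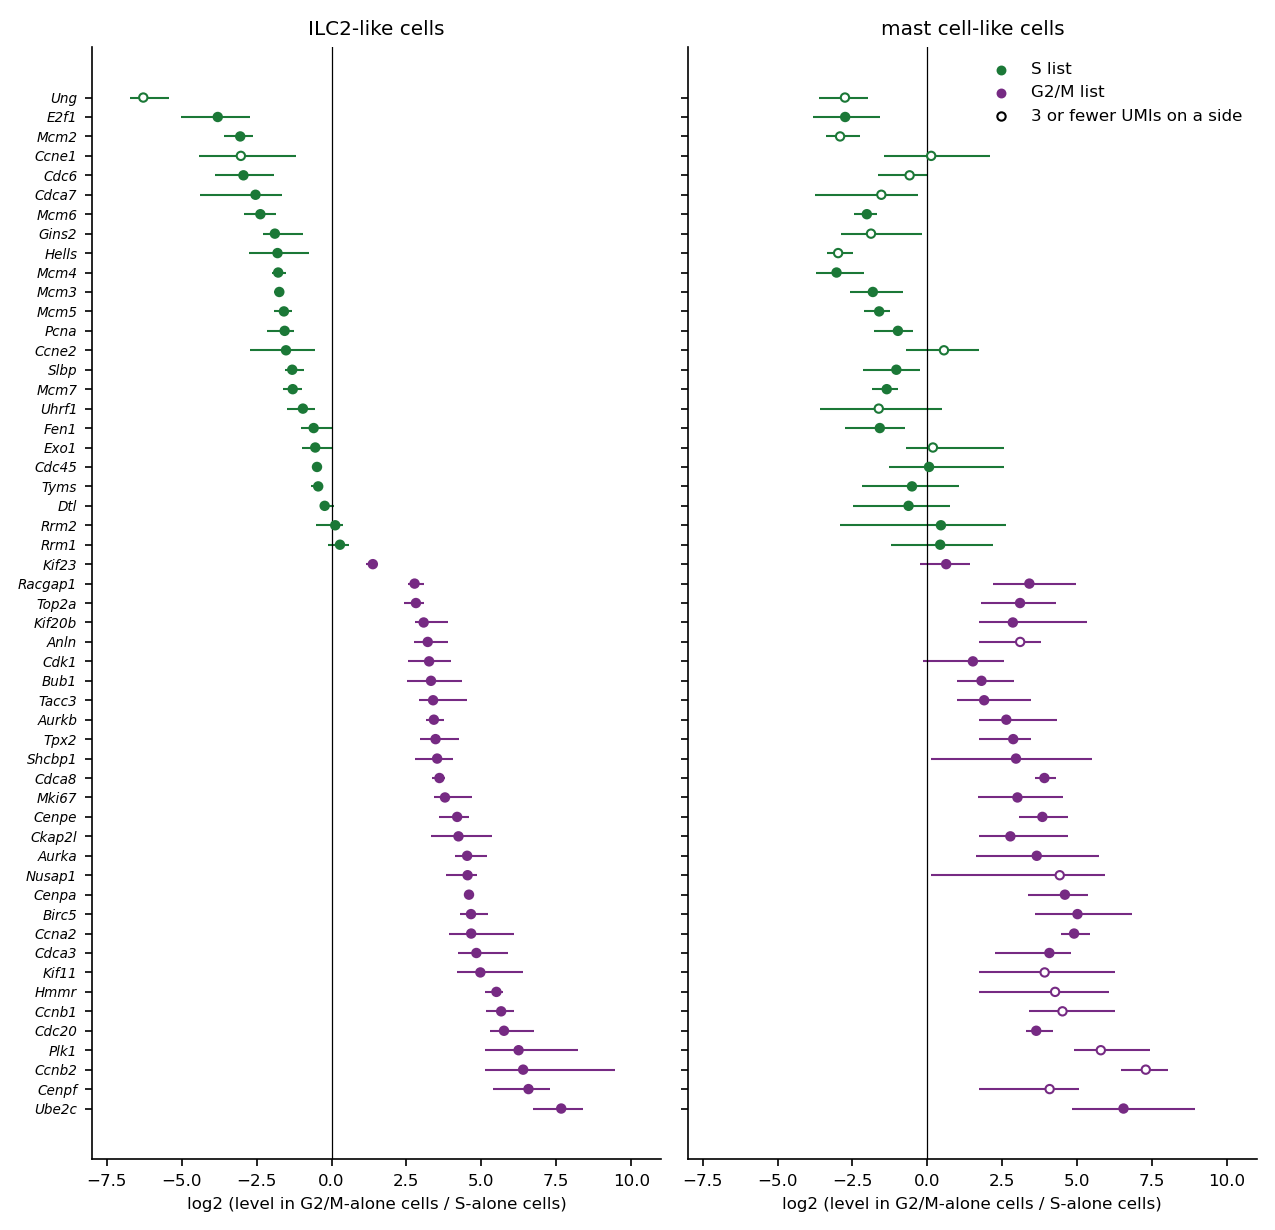
Log2 ratio of each member's level in cells with the G2/M program alone over cells with the S program alone (horizontal axes), for ILC2s on the left and mast cells on the right, with the point the mean over 4 litters, the line the range from the lowest to the highest litter, and members in both panels in the order found in ILC2s. Open points have 3 or fewer UMIs on a side over all litters, where the 0.5 UMIs added before the ratio set much of the value. Among filled points in ILC2s, S members run from E2f1 at -3.80 to Rrm1 at 0.28 and G2/M members from Kif23 at 1.38 to Ube2c at 7.66.

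DEX and PBS litters were compared class by class, with 2 litters each. In ILC2s no member passed, 0 of 24 S and 0 of 29 G2/M members with edgeR, where 2.49% of all 10644 genes tested were called. At an unadjusted p under 0.05 there were 2 S and 2 G2/M members, against 1328 of all genes, and DESeq2 also called 0 members, with 112 of all genes. With the smaller ILC2 cluster left out, edgeR called 0 members and 140 of all 9482 genes tested. The log2 differences (DEX minus PBS) had a median of -0.12 for S, with 18 of 24 below 0, and of -0.09 for G2/M, with 20 of 29 below 0, beside a median near 0 over all genes. E2f1 had the smallest p, with 28.9 and 25.8 CPM in DEX against 33.4 and 41.6 in PBS, a difference of -0.46 ± 0.15 (SE, edgeR adjusted p = 0.171). Both DEX litters were below both PBS litters. Ccnb1 (-0.28 ± 0.10, edgeR adjusted p = 0.246) and Ung (-0.40 ± 0.17, edgeR adjusted p = 0.340) followed. Shcbp1, a midbody protein, had the opposite sign (0.27 ± 0.12, edgeR adjusted p = 0.363), with 50.4 and 59.3 CPM in DEX against 43.9 and 46.8 in PBS. Tyms (-0.18 ± 0.10) and Ube2c (-0.14 ± 0.07) differed by less. The sign of the list medians was not stable, with a G2/M median of 0.07 without the smaller ILC2 cluster and an S median of 0.06 without PBS-2.

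No ILC2 regulator passed either. Lin54, the DNA-binding subunit of MuvB, differed by 0.31 ± 0.10 (edgeR adjusted p = 0.136), Myc by -0.26 ± 0.09 (0.220), Cdkn1c, which encodes the CDK inhibitor p57, by 0.54 ± 0.22 (0.313) and Cdc25b by 0.30 ± 0.13 (0.357). Cdkn1c was 31.3 and 54.2 CPM in DEX against 23.99 and 33.7 in PBS, so the groups overlapped.

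In mast cells the DEX litters stood on either side of the PBS litters over the S list. No member passed, where 0% of all 10539 genes were called by edgeR, 600 had an unadjusted p under 0.05 (3 of them members, all G2/M) and DESeq2 called 10 genes and 0 members. Ccnb1 had the largest difference, -1.31 ± 0.44 (edgeR adjusted p = 0.750), with 1.26 and 1.98 CPM in DEX against 4.49 and 3.89 in PBS. Cdc20 stood at 1.26 and 2.64 against 4.21 and 4.38 CPM (-1.08 ± 0.46, edgeR adjusted p = 0.869). Both genes were lower in each DEX litter at very low levels. Cenpa had the opposite sign (0.42 ± 0.16). In the S list Ccne1 (0.91 ± 0.51), Ung (-0.45 ± 0.29) and Cdc45, a helicase activator (0.67 ± 0.43), had the smallest p. The S sum was 393 CPM in DEX-1 and 692 in DEX-2, on either side of 519 and 513 in PBS. The median of the G2/M list, -0.27, was -1.04 without DEX-2 and 0.12 without DEX-1, and that of the S list, 0.14, was -0.45 and 0.52.

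The test of the DEX effect in ILC2s against that in mast cells called 0 members with edgeR, where 0.242% of all 11555 genes were called. At an unadjusted p under 0.05 there were 6 members among 678 genes. The 6 included Ccnb1 (1.04, edgeR adjusted p = 0.755), Cdc20 (1.02) and E2f1 (-0.59). Single members moved with a litter left out, such as Ube2c from 0.66 to 1.498 without DEX-2 and Rrm2 from -0.25 to -0.98 without DEX-1. Ube2c and Rrm2 were chosen after their values were seen.

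Basophils held 0 called members, where 0% of all 7456 genes were called by edgeR, 106 genes and 0 members had an unadjusted p under 0.05 and DESeq2 called 0. E2f1 (-0.65 ± 0.35), Pcna (-0.39 ± 0.25) and Mcm4 (-0.40 ± 0.31) had the smallest p in the S list, and Cdc20 (-0.65 ± 0.46), Ccnb2 (-0.58 ± 0.45) and Hmmr (-0.45 ± 0.38) in the G2/M list. DEX-1 set the spread, with Ube2c at 75.4 CPM against 267, 246 and 245 in the other litters, and Ccnb1 at 6.56 against 52.4, 44.0 and 35.4. The G2/M median was -0.09, and 0.43 without DEX-1. Without DEX-2 it was -1.39 and 5 G2/M members were called, Ube2c, Tpx2, Ccnb1, Ccnb2 and Cdc20, among 26 of 7709 genes. In that fit DEX-1 alone stands for DEX and the spread comes from the PBS litters alone, so DEX-1 is assumed to vary as they do.

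In the undivided mast or basophil cells all 29 G2/M members were below 0 in DEX minus PBS, beside 49.1% of all genes tested, from -1.04 to -0.21 with a median of -0.45. Members of a list come from the same 4 litter sums and can move together with the share of cells in a program. Counts of members on a side are therefore not independent observations of the treatment, here and in the other classes. In CPM 24 of them were lower in both DEX litters than in both PBS litters, where 20% of all genes tested were. None passed with edgeR, where 0.0335% of all 8953 genes were called. At an unadjusted p under 0.05 there were 19 G2/M and 2 S members among 489 genes, and DESeq2 called 0 members and 2 genes, with 6 G2/M members at an unadjusted p under 0.05. Aurka, a spindle pole kinase, stood at 13.2 and 13.4 CPM in DEX against 31.0 and 25.6 in PBS (-1.04 ± 0.25, edgeR adjusted p = 0.321). Ube2c stood at 193 and 190 against 346 and 224 CPM (-0.54 ± 0.17, edgeR adjusted p = 0.710). The spindle gene Tacc3 (-0.64 ± 0.18) and the kinetochore motor Cenpe (-0.64 ± 0.20) followed. The G2/M share of these cells was 22.4% and 29.2% in DEX and 33.3% in both PBS litters, a difference of -7.56 points. It rests on 75 to 137 cells a litter, and the intervals of single litters overlapped. The S list had 20 of 23 members tested below 0, closer to 0 with a median of -0.12, and 4 of them were lower in both DEX litters than in both PBS litters. Over all settings tried the G2/M median ran from -0.67 to -0.29.

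Macrophages or monocytes had the S list on the other side. All 18 S members tested were above 0, from 0.28 to 1.39 with a median of 0.51, beside 49.7% of all genes tested below 0. In CPM 14 of the 18 were higher in both DEX litters than in both PBS litters, where 19.9% of all genes tested were. The 6 S members not tested were low, with Exo1 at 1, 3, 2 and 2 UMIs by litter. None passed with edgeR, where 0.0664% of all 6025 genes were called. At an unadjusted p under 0.05 there were 5 S and 4 G2/M members among 400 genes, and DESeq2 called 0 members and 2 genes. Mcm5 stood at 93.5 and 70.0 CPM in DEX against 27.1 and 35.5 in PBS (1.28 ± 0.29, edgeR adjusted p = 0.255). Pcna stood at 183 and 152 against 85.3 and 115 CPM (0.69 ± 0.21, edgeR adjusted p = 0.521). Ccnb2 went the other way, with 42.9 and 40.9 against 96.9 and 76.9 CPM (-1.03 ± 0.26, edgeR adjusted p = 0.320). The S share was 23.5% and 28.3% in DEX against 10.5% and 18.3% in PBS, on 34 to 104 cells a litter, and the intervals of single litters overlapped.

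In the remaining classes no member passed. Endothelial cells (0% of all 8922 genes called by edgeR, 389 with an unadjusted p under 0.05, DESeq2 0) had 17 of 19 S members above 0 with a median of 0.35, beside 48.8% of all genes tested below 0. Their S share was 22.1% and 25.0% in DEX against 18.1% and 17.3% in PBS. Their largest S differences at an unadjusted p under 0.05, in 3 members, included Mcm7 (0.74 ± 0.27) and Slbp (0.53 ± 0.19). Mesenchymal cells (0% of all 7396 genes called by edgeR, 295 with an unadjusted p under 0.05, DESeq2 0) had 21 of 22 G2/M members above 0, beside 50.2% of all genes tested below 0. Tpx2, a spindle assembly factor, stood at 46.8 and 51.7 CPM in DEX against 14.7 and 21.5 in PBS (1.44 ± 0.35, edgeR adjusted p = 0.999). The G2/M share of mesenchymal cells went against the sign of the list, with a mean of 10.9% in DEX and 14.5% in PBS, so no order is read from it. Of their S members 13 of 16 were below 0, with a median of -0.32. Epithelial cells (0.0184% of all 10880 genes called, 605 with an unadjusted p under 0.05, DESeq2 5) had an S share of 1.08% and 2.80% in DEX against 5.13% and 12.2% in PBS, while the S list had a median log2 difference of -0.02. The S shares rest on 1 of 93 and 4 of 143 cells in DEX and 6 of 117 and 11 of 90 in PBS. Their G2/M share was 4.30% and 2.10% in DEX against 5.13% and 5.56% in PBS, also on few cells. Of their G2/M members 20 of 25 were below 0 with a median of -0.30, beside 50.9% of all genes tested. B cells (0.213% of all 3294 genes called, 139 with an unadjusted p under 0.05, DESeq2 3) had 3 S members and 1 G2/M member that passed the filter. In each of these 4 classes edgeR and DESeq2 called 0 members.

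**Figure D5:**
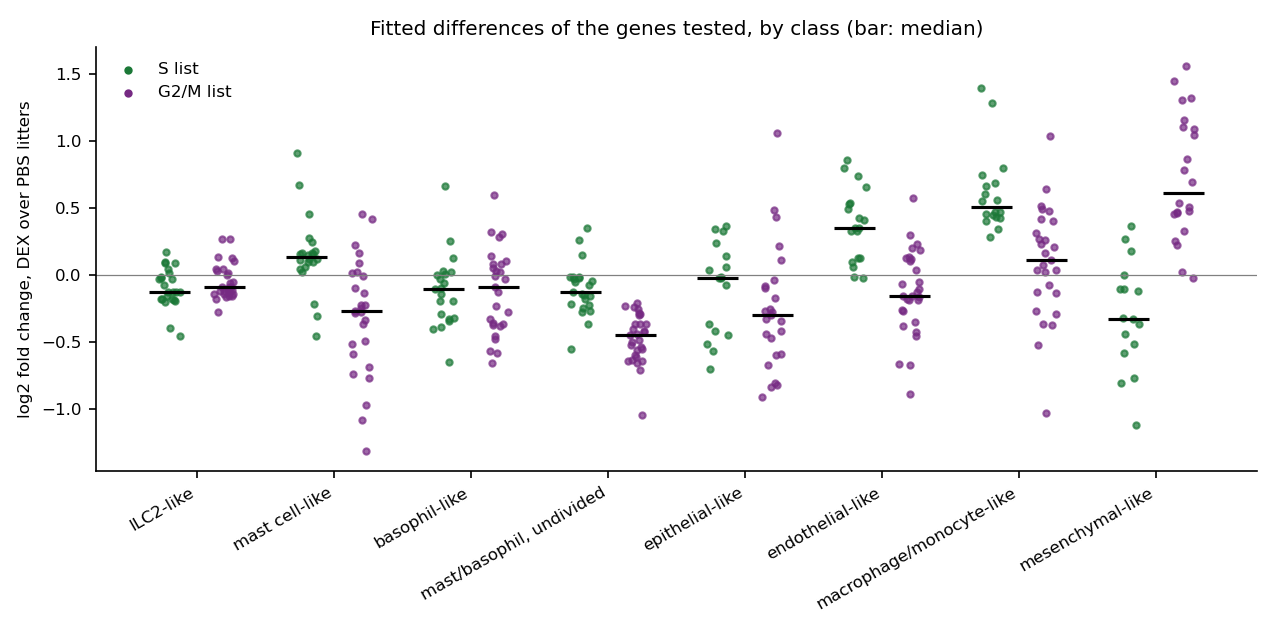
Log2 difference DEX minus PBS of each member that passed the filter, by class and program, 1 point per member with the median as a bar. All 29 G2/M members of undivided mast or basophil cells lie below 0 with a median of -0.45 and all 18 S members of macrophages or monocytes above 0 with a median of 0.51, while the ILC2 lists lie close to 0, and no member passed an adjusted p of 0.05.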

How the data were processed

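Sorted cells of 4 fetal lung litters were measured in 1 gene expression and 1 hashtag library. The authors deposited raw UMI counts per gene and barcode; the submitters' processing notes name Cell Ranger 7 and the mm10 genome. Barcodes with at least 200 genes and at most 5% mitochondrial UMIs were kept (10409 of 10648). Hashtags were assigned to litters by HTODemux (Seurat 5.3.0), and barcodes with several hashtags were dropped as doublets; same-litter doublets were not removed. The hashtag rows were matched to the labelled antibodies by number. Cells were clustered with scanpy 1.11.5 (2000 variable genes, 20 components, 15 neighbours, Leiden resolution 0.5) with members, regulators, histone genes, sex-linked genes, Gata3, Nr3c1 and Il1rl1 left out, and clusters were named from fixed markers.

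UMIs were summed by litter and class. edgeR 4.0.16 (R 4.3.3) gave two-sided quasi-likelihood tests with TMM scaling, filterByExpr and Benjamini-Hochberg adjustment over all genes tested, in a fit for each class; class comparisons and the interaction had the litter as a term. Each litter is a pool of fetuses from 1 mother, so p-values measure the spread between 2 litters a group. Exact permutation of 2 against 2 litters cannot reach 0.05, and shares were given without a test. Cells were thinned to 2000 UMIs for shares; 95% Wilson intervals were used. For the order, 0.5 UMIs were added before the log2 ratio.

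Shares without Kif23, a crossed block and fits without the smaller ILC2 cluster were alternatives chosen after seeing the data. The other settings tried were DESeq2 1.42.0, RLE factors, no filter, other hashtag rules, thinned sums, another clustering resolution, removal of high Scrublet scores, a replicate block and each litter left out. Scripts were tested on simulated data. The members and lists were chosen with earlier results of these data known. Members named were drawn from those of fixed roles and, as no member passed in a treatment fit, from the 3 of each program with the smallest p in mast cells, ILC2s and basophils. Values by litter were given for some of them, and log2 differences or ratios alone for the rest. Others named (among them Kif23, Hells, Tacc3, Cenpe, Mcm7 and Tpx2) and regulators that did not pass were chosen after their values were seen. Depth was 18665955 to 23660294 UMIs a litter.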

Additional observations from a re-analysis of the deposited data

Results flagged for a closer look

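The S program share moved in opposite directions in the classes whose litters separated, while the litters overlapped in 6 of the 9 named classes. In DEX minus PBS litters it was -6.74 points in epithelial cells, where both DEX litters were below both PBS litters, and 5.83 points in endothelial cells and 11.5 points in macrophages or monocytes, where both DEX litters were above. The difference between these classes was not tested. The classes held 90 to 143, 52 to 94 and 34 to 104 cells a litter after thinning. In epithelial cells the S share rests on 1 and 4 cells in the DEX litters and 6 and 11 in the PBS litters. The separation held in 6 of 9 settings for epithelial cells, 4 of 9 for endothelial cells and 8 of 9 for macrophages or monocytes.

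Barcodes without a hashtag, which entered no comparison, also held dividing cells. Of 2067 such barcodes, 7.89% had the S program and 8.56% the G2/M program. Among them, 757 epithelial cells had 1.45% and 2.11%, 431 endothelial cells 21.6% and 24.4%, 601 mesenchymal cells 4.83% and 2.66%, and 204 cells of the unnamed cluster led by Higd1b 8.82% and 10.8%. Their litter is not known. Cells with a hashtag had higher shares in mesenchymal cells (13.5% and 11.9%) and epithelial cells (4.97% and 4.06%). They had similar shares in endothelial cells (20.5% and 23.0%), and 10.2% and 20.5% in the cluster led by Higd1b. The source of these differences was not tested.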

How the results depend on the processing

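No member was called in any class in the DEX against PBS fits reported. With the replicate block, which takes the litter number as a term, 1 member was called in ILC2s (E2f1) and 2 in macrophages or monocytes (Mcm5 and Ccnb2), and the block changed no other count of members called in a treatment fit. Over all genes the block moved the count of calls from 265 to 668 in ILC2s, 0 to 50 in mast cells, 3 to 41 in undivided mast or basophil cells, 4 to 83 in macrophages or monocytes and 7 to 30 in B cells. Litters share only a number, and 2 pairs cannot show a pairing: deviations of same-numbered litters correlated at 0.123 in mast cells, 0.116 in B cells, 0.109 in macrophages or monocytes, 0.0894 in ILC2s and 0.0566 or less in the other classes, down to -0.157 in epithelial cells and -0.29 in basophils. In both of the latter, below -0.1, a crossed pairing called 0 members. Without the filter on low genes, 1 was called in mast cells (Ube2c), 2 in undivided mast or basophil cells (Ube2c and Aurka), 1 in macrophages or monocytes (Mcm5) and 1 in mesenchymal cells (Cenpa). The calls over all genes without the filter are not given here, so these are not read as a result about the members. With single litters left out the list medians moved, from -0.45 to 0.52 for the S list in mast cells and from -1.39 to 0.43 for the G2/M list in basophils. In such fits some members were called in ILC2s, mast cells, basophils, undivided mast or basophil cells, macrophages or monocytes and mesenchymal cells. Some were also called in the test of ILC2s against mast cells. These calls rest on 1 litter in a group and are not read as results. Single members moved too, such as E2f1 in ILC2s from -0.46 to -0.60 without PBS-1. Ube2c in mast cells moved from -0.77 to -1.64 without DEX-2, and Mcm5 in macrophages or monocytes from 1.28 to 1.52 without DEX-2. These were chosen after their values were seen. Members higher in ILC2s than in basophils numbered 15 with thinned sums, and 18 to 32 with single litters left out, in place of 29. The shares of all genes higher in those fits are not given here. Thinned sums turned Tyms in ILC2s to 0.19 and E2f1 in ILC2s minus mast cells to -0.09. Ccnb2 in basophils ran from -1.89 to 0.04 with single litters left out. Without the smaller ILC2 cluster 9 members were higher in ILC2s than in basophils, Ube2c in the ILC2 treatment fit was 0.05, and E2f1 and Cdc6 in ILC2s minus mast cells were -0.25 and -0.08. Leaving out a litter leaves 1 in its group, which is assumed to vary like the other group. The regulator Cdkn1c was called in ILC2s without the filter, with the block, without DEX-1 and without PBS-2.

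Shares depend on the cut. For ILC2s the S share was 43.1% at 2 UMIs, 17.5% at 5, 15.8% with thinning to 1000 UMIs and 59.7% without thinning, and the G2/M share 25.8%, 18.6%, 17.7% and 34.6%. For mast cells these were 18.4%, 3.15%, 3.13% and 34.2%, and 8.06%, 1.86%, 1.69% and 18.0%. For basophils the S share was 22.8%, 7.20%, 6.69% and 36.4%, and the G2/M share 18.7% at 2 UMIs and 29.1% without thinning. DESeq2 moved the median of all genes to -0.22 in ILC2s minus basophils and -0.41 in ILC2s minus epithelial cells. In small classes a few cells set a share, and counts of 2 litters a group limit every treatment comparison. Leaving Kif23 out of the list moved the G2/M share of mast cells from 3.34% to 2.43%. The causes of these changes were not tested.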
